A study of Mus musculus with 41 samples.

Results

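The kidneys described here were injured by ischemia and then left as the only kidney of the animal. The 6 libraries titled UIRI+Nx d7 were set against the 6 titled Control, 12 of the 41 libraries of the series, and both groups belong to the first cohort. Per the labels, male mice 8 to 10 weeks old had the blood supply of the left kidney closed for 21 min while the body was kept at 34 °C, which is called unilateral ischemia-reperfusion injury (UIRI). The other kidney, which had not been injured, was removed by nephrectomy (Nx) on day 3, and the injured kidney was harvested on day 7. Control mice had no ischemia, and whether they had a sham operation is not given in the labels. The same cohort holds 6 libraries of injured kidneys from day 3 (UIRI d3) and 6 from day 7 after a sham nephrectomy (UIRI d7), which are used below as further references. Strain and genotype of these mice are not given in the labels. The submitters' design gives 6 animals per group, and each library is titled separately. Injury, nephrectomy and the days since surgery all differ between UIRI+Nx d7 and Control, and their shares in a difference cannot be told apart in that comparison.

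After ischemia, tubule cells that survive lose their specialised transport genes, divide to replace lost neighbours, and either return to their former state or stay in an inflamed, matrix-producing one. Removing the uninjured kidney at an early time forces the injured kidney to carry all filtration, and mouse kidneys treated in this way are known to recover more function than those left beside a healthy partner. The comparison with Control therefore asks which transcripts were still abnormal in a kidney that had sustained the animal alone for 4 days.

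RNA came from cryosections of the kidney's pole, 3′ ends of messenger RNA were sequenced, and the deposited values are whole-number counts per gene. Levels are given in CPM, a gene's count scaled to a fixed library size with the TMM factors of edgeR, as mean ± SD over 6 libraries per group. A gene is said to have risen or fallen where the quasi-likelihood test of edgeR, corrected over all 15701 genes tested, gave an adjusted p under 0.05. Log2 fold changes are UIRI+Nx d7 over Control unless another group is named, and SE is their standard error. Because sequencing starts at the 3′ end of each transcript, CPM is not divided by gene length. In bulk tissue, fewer cells of a type and less RNA per cell cannot be told apart.

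Kidney identity was visible in both groups. Slc34a1, the phosphate transporter that marks proximal tubules, was at 1509 ± 639.5 CPM in UIRI+Nx d7 and 5743 ± 1058 CPM in Control. Umod, the uromodulin gene of the thick ascending limb, was at 975 ± 366 CPM in UIRI+Nx d7 and 2081 ± 499 CPM in Control. Aqp2, the water channel of the collecting duct, was at 415 ± 188 CPM in UIRI+Nx d7 and 669.7 ± 320 CPM in Control. Total counts per library ran from 5579718 to 19039076 in UIRI+Nx d7 and from 12888852 to 30753380 in Control (two-sided exact permutation p = 0.0455, adjusted 0.0758 over 5 such tests). Mitochondrially encoded transcripts held 4.62% ± 0.896 of counts in UIRI+Nx d7 and 8.32% ± 1.54 in Control, and ribosomal protein transcripts held 3.65% ± 0.301 in UIRI+Nx d7 and 1.84% ± 0.165 in Control (SD, n = 6 each). Both differences had an exact permutation p of 0.00216, the smallest that 6 against 6 libraries allow (adjusted 0.00541). Hemoglobin transcripts, a measure of blood in the tissue, held 0.0179% of counts in UIRI+Nx d7 and 0.035% in Control (exact permutation p = 0.465).

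Against Control, 2709 of 15701 genes rose (17.3%) and 2200 fell (14.0%), and 1786 (11.4%) and 1129 (7.19%) did so by more than 2-fold. In 1529 genes (9.74%) all UIRI+Nx d7 libraries lay above all Control libraries, and in 1159 (7.38%) all lay below. The median log2 fold change was 1.33 among genes that rose and -1.01 among genes that fell, while over all genes tested it was 0.02. Genes that rose held 17.4% ± 1.96 of all counts in UIRI+Nx d7 and 6.33% ± 0.339 in Control. Genes that fell held 20.9% ± 2.46 in UIRI+Nx d7 and 41.7% ± 3.55 in Control. The libraries were numbered in 3 sets, described in the methods. Within the first set (3 libraries per group) 2308 genes rose and 1927 fell, and within the third (2 per group) 445 rose and 235 fell. The first principal component of the 12 libraries held 50.9% of the variance and separated the groups.

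**Figure D1:**
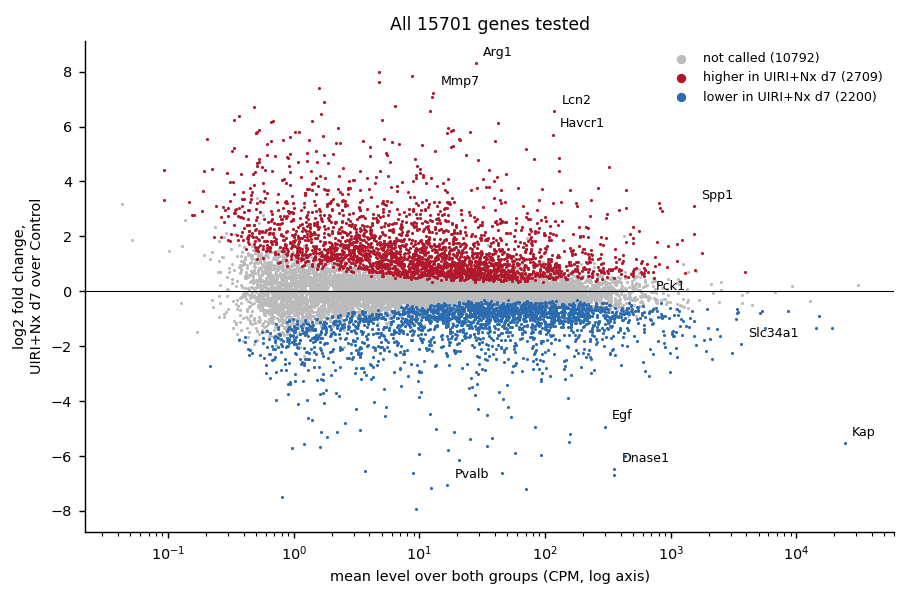
Log2 fold change of UIRI+Nx d7 over Control (y axis) against the mean level in CPM over both groups on a log axis (x axis), 1 point per gene tested, with genes that passed the edgeR test coloured by direction. The 2709 genes that rose and the 2200 that fell are found at all levels, and the losses reach the highest levels, with Kap at the bottom right.

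The 12 genes that stood farthest above Control included genes known from injured epithelium, matrix turnover and myeloid cells. Mmp7, a matrix-degrading protease secreted by injured tubules, ran from 11.2 to 53.3 CPM in UIRI+Nx d7 (median 23.5) and from 0.0369 to 0.346 CPM in Control (median 0.176). The groups did not overlap (log2 fold change 7.23, SE 0.86, edgeR adjusted p = 2.85e-07). Lcn2, which encodes the urinary injury marker NGAL, ran from 68.9 to 445 CPM in UIRI+Nx d7 (median 210) and from 0.935 to 4.2 CPM in Control (median 2.52). Its lowest sole kidney was still above the highest Control kidney (log2 fold change 6.55, SE 0.62, edgeR adjusted p = 7.38e-09). Timp1, a tissue inhibitor of metalloproteinases, ran from 32.6 to 146 CPM in UIRI+Nx d7 (median 85.6) and from 0.553 to 1.9 CPM in Control (median 1.18). The ranges were apart again, at a log2 fold change of 6.15 (SE 0.41, edgeR adjusted p = 2.07e-11). Serpina3n, a protease inhibitor of the acute phase, was at 36.5 ± 27.4 CPM in UIRI+Nx d7 and 0.617 ± 0.392 CPM in Control, and Krt20, a keratin of stressed tubules, was at 33.1 ± 21.9 CPM in UIRI+Nx d7 and 0.528 ± 0.307 CPM in Control. Both lay above Control without overlap. The neutrophil attractant Cxcl5 averaged 12.7 CPM in UIRI+Nx d7 and 0.119 CPM in Control, and the epidermal envelope gene Sprr2f averaged 24.1 CPM in UIRI+Nx d7 and 0.251 CPM in Control, which belongs to a family of near-identical copies that 3′ reads may not separate. Lgi2 averaged 35.3 CPM in UIRI+Nx d7 and 0.627 CPM in Control and also rose without overlap.

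Measured by the gain in CPM, the leading transcripts included genes of matrix, cytoskeleton and lysosome. Spp1, which encodes osteopontin, gained most, at 2763 ± 648 CPM in UIRI+Nx d7 and 319.9 ± 91.3 CPM in Control. Sparc, a collagen-binding matrix protein, was at 2501 ± 1375 CPM in UIRI+Nx d7 and 581 ± 189 CPM in Control, and Bgn, the proteoglycan biglycan, was at 1714 ± 996 CPM in UIRI+Nx d7 and 519 ± 211 CPM in Control. Mgp, matrix Gla protein, averaged 1942 CPM in UIRI+Nx d7 and 527 CPM in Control, the lysosomal protease gene Ctsd averaged 2565 CPM in UIRI+Nx d7 and 978 CPM in Control, and the calcium-binding S100a6 averaged 1498 CPM in UIRI+Nx d7 and 198 CPM in Control. The cytoskeletal gene Tmsb4x averaged 1448 CPM in UIRI+Nx d7 and 463 CPM in Control. Actb, beta-actin, averaged 4884 CPM in UIRI+Nx d7 and 2972 CPM in Control, and it did not pass without UIRI+Nx d7 replicate 6 (edgeR adjusted p = 0.0588). Apoe, which carries lipid and is abundant in macrophages, ran from 832 to 2750 CPM in UIRI+Nx d7 (median 1202) and from 117 to 293 CPM in Control (median 164). Every sole kidney exceeded every Control kidney in Apoe (log2 fold change 3.04). Mt2, a metallothionein that binds zinc and copper, was at 1457 ± 745 CPM in UIRI+Nx d7 and 158 ± 46.8 CPM in Control (log2 fold change 3.21, SE 0.38, edgeR adjusted p = 2.09e-07).

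The genes that fell farthest included genes of the proximal and distal tubule. Dnase1, a secreted nuclease of the kidney, ran from 4.1 to 19 CPM in UIRI+Nx d7 (median 5.72) and from 424 to 1082 CPM in Control (median 679.8). The groups did not overlap (log2 fold change -6.49, SE 0.39, edgeR adjusted p = 2.87e-12). The organic anion carrier Slc22a7 ran from 0.17 to 1.39 CPM in UIRI+Nx d7 (median 1.04) and from 98 to 208 CPM in Control (median 123), again without overlap (log2 fold change -7.22, SE 0.56, edgeR adjusted p = 2.26e-10). C8a, a complement component expressed in mouse kidney, averaged 0.0553 CPM in UIRI+Nx d7 and 18.6 CPM in Control, and 4 of the 6 UIRI+Nx d7 libraries held no count of it. Pvalb, the calcium buffer parvalbumin of the distal convoluted tubule, ran from 0 to 0.773 CPM in UIRI+Nx d7 (median 0.173) and from 21.3 to 46.5 CPM in Control (median 33.4). It was close to undetected in the sole kidneys (log2 fold change -7.05). Slc7a13, an amino acid transporter of the last proximal segment, was at 13.1 ± 19.4 CPM in UIRI+Nx d7 and 854 ± 528 CPM in Control, and Slco1a1, an organic anion carrier, was at 3 ± 1.9 CPM in UIRI+Nx d7 and 183 ± 130.2 CPM in Control. Akr1c18, a steroid reductase, averaged 0.285 CPM in UIRI+Nx d7 and 19.4 CPM in Control, and Mep1b, a brush border protease, averaged 1.85 CPM in UIRI+Nx d7 and 114 CPM in Control. Inmt, a methyltransferase, averaged 6.82 CPM in UIRI+Nx d7 and 707 CPM in Control. Sec14l3, Serpina1d and Slc22a26 were the others of the 12 largest losses, with log2 fold changes of -6.63, -6.63 and -6.14. Serpina1d has near-identical copies, so its count may be shared among them.

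**Figure D2:**
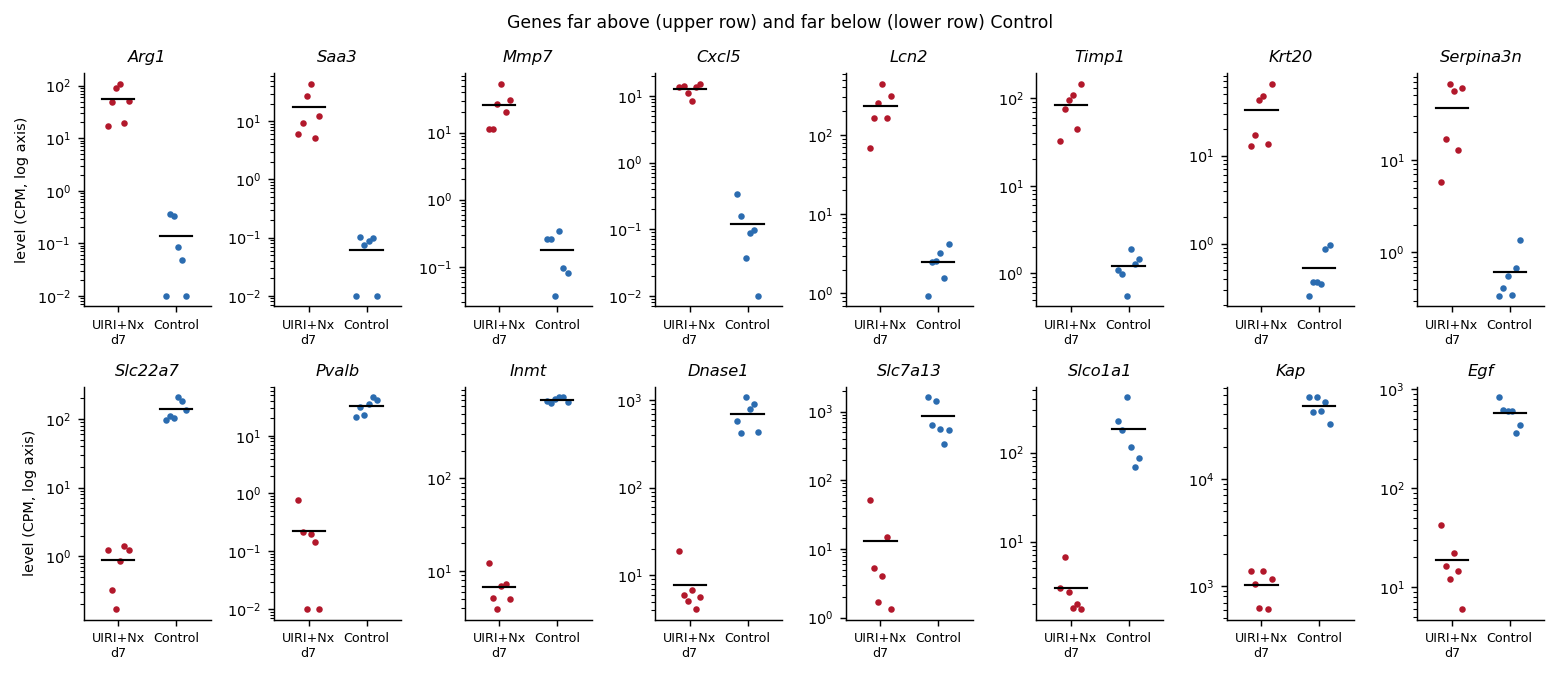
CPM per library on a log axis (y axis) for genes far above Control (upper row) and far below it (lower row), with UIRI+Nx d7 left and Control right in each panel. Each point is 1 library, the bar is the group mean, and libraries with no count are drawn at 0.01. The groups do not overlap in any of these panels.

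The tubule genes that fell were spread unevenly over the nephron lists. Of 14 measured transporters of the early proximal tubule 5 fell and none rose (median log2 fold change -0.40). Of 16 of the late segment 13 fell and none rose (median -1.77), against 14.0% and 17.3% of all genes. Slc6a19, the neutral amino acid carrier of the early segment, was at 318 ± 170.3 CPM in UIRI+Nx d7 and 433 ± 108 CPM in Control, and it did not pass the test (log2 fold change -0.44, SE 0.30, edgeR adjusted p = 0.297). Slc5a2, the sodium-glucose transporter SGLT2, fell (log2 fold change -0.91, SE 0.25). The phosphate transporters Slc34a1 and Slc34a3 fell by more, with log2 fold changes of -1.93 and -2.16. In the late segment, Slc22a19 averaged 1.19 CPM in UIRI+Nx d7 and 49.4 CPM in Control and Slc22a30 averaged 5.18 CPM in UIRI+Nx d7 and 96.9 CPM in Control, both organic anion transporters. Slc5a8, a lactate carrier, was at 35.6 ± 23.6 CPM in UIRI+Nx d7 and 166 ± 51.1 CPM in Control, and the urate and anion carrier Slc22a13 was at 15.2 ± 10.2 CPM in UIRI+Nx d7 and 116 ± 32.2 CPM in Control. Slc5a1, the glucose transporter SGLT1, did not pass the test (log2 fold change -0.27, edgeR adjusted p = 0.656).

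In the list for transport of organic ions and drugs 12 of 17 genes fell and 3 rose (median -1.16). Slc22a6, the anion transporter OAT1 of the basal membrane, was at 169 ± 71.1 CPM in UIRI+Nx d7 and 656 ± 70.4 CPM in Control. Slc22a2, the cation transporter OCT2, was at 248 ± 92.8 CPM in UIRI+Nx d7 and 1197 ± 276 CPM in Control, and Slc22a12, the urate transporter URAT1, was at 351 ± 214 CPM in UIRI+Nx d7 and 1231 ± 389.8 CPM in Control. The 3 that rose were export pumps and a prostaglandin carrier, namely Abcc4 (106 CPM in UIRI+Nx d7 and 47.3 CPM in Control), Abcb1b (8.44 CPM in UIRI+Nx d7 and 3.39 CPM in Control) and Slco2a1 (83.5 CPM in UIRI+Nx d7 and 32.9 CPM in Control). In the endocytic apparatus that retrieves filtered protein, 2 of 11 genes fell, against 14.0% of all genes. Lrp2, the megalin receptor, ran from 173 to 1137 CPM in UIRI+Nx d7 (median 408) and from 819 to 2188 CPM in Control (median 1544). The lowest Control library lay within the range of the sole kidneys, and 1 sole kidney reached Control levels (log2 fold change -1.54, SE 0.35, edgeR adjusted p = 0.00122), and its chaperone Lrpap1 fell with it (log2 fold change -1.50). Dab2, their adaptor, was at 462 ± 87.1 CPM in UIRI+Nx d7 and 482 ± 84.3 CPM in Control and did not pass the test (edgeR adjusted p = 0.8). Among transcription factors that maintain the proximal tubule 5 of 12 fell and 1 rose. Hnf4a, a master regulator of the segment, missed the threshold (log2 fold change -0.63, SE 0.27, edgeR adjusted p = 0.0789). Ppara, the fatty acid receptor, was at 69.6 ± 40.9 CPM in UIRI+Nx d7 and 66.5 ± 20.7 CPM in Control (edgeR adjusted p = 0.909).

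Genes that androgens keep high in male mouse kidney were among the deepest losses, with 14 of 16 lower and none higher (median -1.94). Among all genes 14.0% were lower and 17.3% higher. Kap, the androgen-regulated protein that is very abundant in the kidneys of healthy male mice, ran from 610.2 to 1394 CPM in UIRI+Nx d7 (median 1098) and from 32319 to 57765 CPM in Control (median 47428). The highest sole kidney stood far under the lowest Control kidney. Cyp7b1, an oxysterol hydroxylase, was at 5.24 ± 1.72 CPM in UIRI+Nx d7 and 162 ± 46.4 CPM in Control, and Acsm3, a medium-chain acyl-CoA synthetase, was at 6.72 ± 4.17 CPM in UIRI+Nx d7 and 304 ± 214 CPM in Control. Gusb and Prlr were the members that did not pass the test, with log2 fold changes of 0.28 and -0.09. None of 4 Y-linked transcripts passed the test, with Ddx3y at 126 ± 19.7 CPM in UIRI+Nx d7 and 127 ± 21.8 CPM in Control.

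The list for glucose production and ammonia handling held genes that fell beside key enzymes that did not pass the test. Pck1, the rate-limiting enzyme of gluconeogenesis, ran from 219 to 942 CPM in UIRI+Nx d7 (median 613) and from 336 to 1039 CPM in Control (median 694). The ranges overlapped widely (log2 fold change -0.23, SE 0.43, edgeR adjusted p = 0.747). G6pc, the phosphatase that releases free glucose, ran from 38.3 to 267 CPM in UIRI+Nx d7 (median 131) and from 82 to 187 CPM in Control (median 144), also with overlap (log2 fold change 0.03, SE 0.29, edgeR adjusted p = 0.954). Slc38a3, the glutamine carrier that feeds ammonia production, was at 41.5 ± 19.7 CPM in UIRI+Nx d7 and 31.8 ± 1.66 CPM in Control (log2 fold change 0.38, SE 0.40, edgeR adjusted p = 0.517). A p over the threshold does not show that levels were equal. Of the 16 genes in this list 8 fell and none rose (median -0.47), against 14.0% and 17.3% of all genes. Those that fell included Fbp1, which acts late in the pathway (227 CPM in UIRI+Nx d7 and 569.6 CPM in Control) and the fructose kinase Khk (244 CPM in UIRI+Nx d7 and 845 CPM in Control).

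In the thick ascending limb, which reabsorbs salt, 9 of 14 genes fell and none rose (median -0.996), against 14.0% and 17.3% of all genes. Egf, the growth factor made by this segment and the next, ran from 5.99 to 42 CPM in UIRI+Nx d7 (median 15.5) and from 362 to 836 CPM in Control (median 603). The groups were far apart (log2 fold change -4.93, SE 0.34, edgeR adjusted p = 3.49e-11). Slc12a1, the furosemide-sensitive salt carrier, was at 946 ± 202 CPM in UIRI+Nx d7 and 3156 ± 1031 CPM in Control and Ppp1r1a, a phosphatase inhibitor, at 64.4 ± 16.3 CPM in UIRI+Nx d7 and 305 ± 47.5 CPM in Control. The paracellular calcium and magnesium pore genes Cldn16 and Cldn19 had log2 fold changes of -0.01 and 0.03, and neither passed the test. In the distal convoluted and connecting tubule 10 of 16 fell and 1 rose (median -0.85). Slc12a3, the thiazide-sensitive carrier, was at 119 ± 47.1 CPM in UIRI+Nx d7 and 474 ± 52.1 CPM in Control. S100g, the calcium buffer calbindin D9k, ran from 520.3 to 703 CPM in UIRI+Nx d7 (median 588) and from 1493 to 2143 CPM in Control (median 1899), without overlap (log2 fold change -1.61, SE 0.18, edgeR adjusted p = 1.44e-07). Calb1, the larger calbindin, was at 361 ± 102 CPM in UIRI+Nx d7 and 638 ± 134 CPM in Control and also fell (log2 fold change -0.82, edgeR adjusted p = 0.0175).

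In the collecting duct, the principal cells regulate sodium and water. Of 15 principal cell genes 2 fell and 1 rose, and Aqp2 did not pass the test (log2 fold change -0.69, SE 0.43, edgeR adjusted p = 0.242). The sodium channel subunits Scnn1a and Scnn1g had log2 fold changes of 0.17 and 0.18. Sgk1, the aldosterone-induced kinase that keeps this channel at the membrane, rose (log2 fold change 0.79, edgeR adjusted p = 0.0387), a call lost when any 1 of 7 libraries was left out (edgeR adjusted p = 0.0561 to 0.095). Of 15 intercalated cell genes, which secrete acid or base, 9 fell and none rose. Slc4a1, the anion exchanger of acid-secreting cells and also of red blood cells, was at 6.79 ± 1.42 CPM in UIRI+Nx d7 and 31 ± 8.37 CPM in Control, and Slc26a4, the pendrin of base-secreting cells, was at 23.7 ± 8.53 CPM in UIRI+Nx d7 and 60.8 ± 10.3 CPM in Control. Rhbg and Rhcg, which carry ammonia, both fell (log2 fold changes -1.40 and -0.88). Of 14 podocyte genes in the glomerulus 2 fell and 1 rose. Over all genes 14.0% fell and 17.3% rose, and the principal cell and podocyte counts were near or under these shares. Nphs1, the slit diaphragm protein nephrin, and Wt1 did not pass the test (log2 fold changes -0.61 and 0.17). Among 10 thin limb genes 3 rose and 3 fell.

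**Figure D3:**
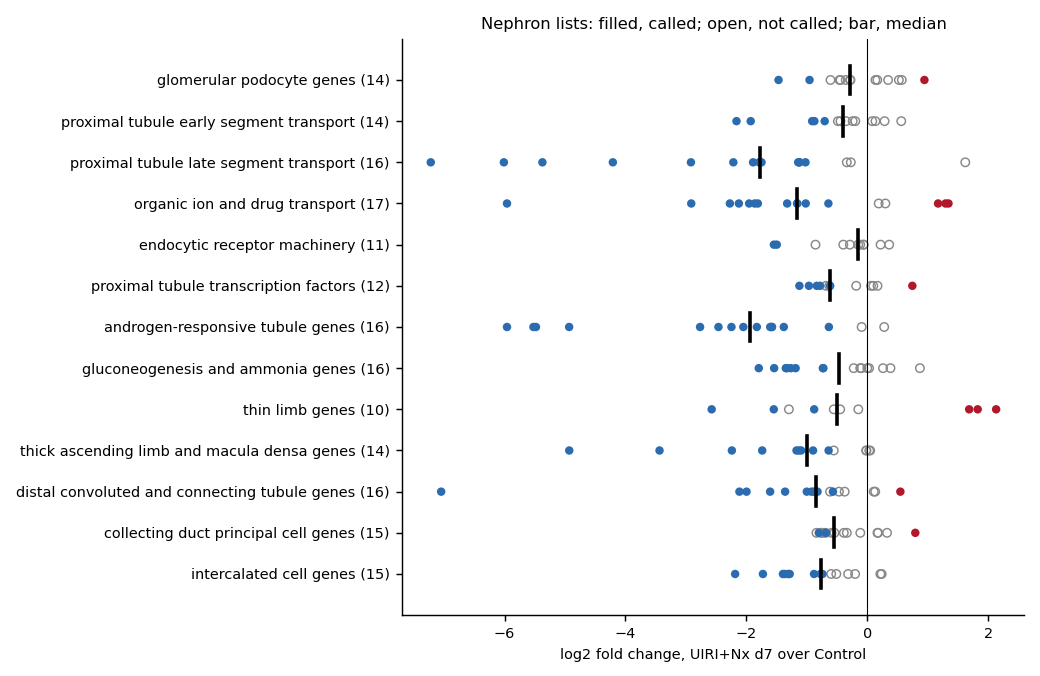
Log2 fold change of UIRI+Nx d7 over Control (x axis) for each measured gene of the lists for nephron segments and tubule programs (rows), with genes that passed the edgeR test filled and the others open. The black bar is the list median, which is -0.40 for early and -1.77 for late proximal transport and -1.94 for androgen-responsive genes.

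The mineral and hormone genes of the kidney changed in both directions. Of 17 klotho, phosphate and vitamin D genes 9 fell and 3 rose, against 14.0% and 17.3% of all genes. Kl, the klotho co-receptor of FGF23, was at 60.9 ± 38.9 CPM in UIRI+Nx d7 and 241 ± 77 CPM in Control (log2 fold change -1.98, SE 0.37, edgeR adjusted p = 0.00015). Pth1r, the parathyroid hormone receptor, was at 538 ± 141 CPM in UIRI+Nx d7 and 1512 ± 511 CPM in Control. Cyp27b1, which makes active vitamin D, ran from 1.25 to 19.6 CPM in UIRI+Nx d7 (median 6.04) and from 0.145 to 4.04 CPM in Control (median 0.458). The ranges overlapped, since the highest Control library stood above 3 sole kidneys (log2 fold change 3.22, SE 0.72, edgeR adjusted p = 0.00104). In the renin-angiotensin list 5 of 12 genes fell and 1 rose. Ace, the converting enzyme, ran from 4.56 to 8.43 CPM in UIRI+Nx d7 (median 6.37) and from 28.5 to 68.2 CPM in Control (median 53.3). It did not overlap with Control (log2 fold change -3.01). Agt, the angiotensin precursor, did not pass the test (log2 fold change -0.23, edgeR adjusted p = 0.636). The list of ligands and receptors of the EGF receptor held 5 genes that rose and Egf itself, which fell, of 13, among them Nrg1, neuregulin 1 (log2 fold change 1.71).

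Genes of mitochondrial energy metabolism either fell or did not pass the test. Fatty acid oxidation, the main fuel pathway of proximal tubules, had 19 of 30 genes lower and none higher (median -0.84), against 14.0% of all genes lower. Acadm, the medium-chain dehydrogenase, was at 182 ± 35.4 CPM in UIRI+Nx d7 and 718 ± 103 CPM in Control (log2 fold change -1.98, SE 0.18, edgeR adjusted p = 4.92e-09), and Cpt2, the inner carnitine transferase, was at 101 ± 24.2 CPM in UIRI+Nx d7 and 220.2 ± 20.7 CPM in Control. Hadhb, a subunit of the long-chain enzyme, did not pass (log2 fold change -0.38, edgeR adjusted p = 0.441). In the citric acid cycle 10 of 20 genes fell, among them Sucla2 (log2 fold change -1.07) and Ogdh (log2 fold change -0.91), and of 37 nuclear-encoded respiratory chain subunits 20 fell, with the largest fall in Cox7a1 (log2 fold change -1.26). None of either list rose. The lower share of mitochondrially encoded transcripts given above moved in the same direction, and its part in these results was not tested. Of 22 genes of amino acid and creatine metabolism 17 fell and 1 rose, with Aadat at 23.1 ± 12.4 CPM in UIRI+Nx d7 and 136 ± 69.1 CPM in Control and Haao, which acts in tryptophan breakdown, at 13.7 ± 4.62 CPM in UIRI+Nx d7 and 81.3 ± 22.7 CPM in Control. Kynu, of the same tryptophan pathway, was the member that rose (log2 fold change 1.43).

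Of 19 genes of glycolysis and the pentose pathway 6 rose and 3 fell (median 0.06), against 17.3% and 14.0% of all genes. Hk2, an inducible hexokinase, ran from 20.9 to 39.1 CPM in UIRI+Nx d7 (median 32.1) and from 1.56 to 8.7 CPM in Control (median 1.85), without overlap (log2 fold change 3.27, SE 0.35, edgeR adjusted p = 5.63e-08). Slc16a3, which exports lactate, rose (log2 fold change 2.33), while Ldha, which makes lactate, fell (log2 fold change -0.81). Among lipid genes 7 of 22 fell and 3 rose. Lpl, the lipase that takes fatty acids from blood, ran from 197 to 260.2 CPM in UIRI+Nx d7 (median 235) and from 1202 to 2242 CPM in Control (median 1809.5), with no overlap (log2 fold change -2.93, SE 0.19, edgeR adjusted p = 6.85e-12), and Cd36, a fatty acid receptor, fell as well, at 44.1 ± 15.6 CPM in UIRI+Nx d7 and 251 ± 120.4 CPM in Control. Plin4, which coats lipid droplets, rose (log2 fold change 1.67). Cholesterol synthesis was mixed, with 6 of 21 lower and 4 higher. Cyp51, a sterol demethylase, averaged 127 CPM in UIRI+Nx d7 and 554 CPM in Control. By CPM lost, the ketone enzyme Oxct1 (697 CPM in UIRI+Nx d7 and 3115 CPM in Control), the peroxisomal reductase Pecr (661 CPM in UIRI+Nx d7 and 3625 CPM in Control) and the acyl-CoA synthetases Acsm2 (1063 CPM in UIRI+Nx d7 and 5047 CPM in Control) and Slc27a2 (832 CPM in UIRI+Nx d7 and 2872 CPM in Control) stood beside Kap and Slc34a1 and, with Spink1, a trypsin inhibitor (2191 CPM in UIRI+Nx d7 and 4379.8 CPM in Control), among the 10 largest losses.

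Detoxifying enzymes divided into a large group that fell and a small one that rose. Of 29 xenobiotic and conjugation enzymes 15 fell and 6 rose, against 14.0% and 17.3% of all genes. Cyp2e1 averaged 49.4 CPM in UIRI+Nx d7 and 337 CPM in Control, and Cyp2a4 averaged 8.28 CPM in UIRI+Nx d7 and 308 CPM in Control. Gsta4, a glutathione transferase that clears lipid peroxidation products, ran from 48.2 to 95.6 CPM in UIRI+Nx d7 (median 65.2) and from 15.7 to 32.6 CPM in Control (median 21.9). Gsta2, a related transferase, ran from 284 to 424 CPM in UIRI+Nx d7 (median 326) and from 56.2 to 215 CPM in Control (median 114). Both lay above Control without overlap (log2 fold changes 1.54 and 1.50). Aldh1a1, which makes retinoic acid, was at 24.2 ± 7.65 CPM in UIRI+Nx d7 and 3.8 ± 1.1 CPM in Control.

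NRF2 is a transcription factor that binds the antioxidant response element and switches on glutathione and quinone metabolism. Of 22 of its known targets 9 rose and 4 fell, against 17.3% and 14.0% of all genes. The list therefore did not move one way. Nqo1, a quinone reductase, ran from 62.8 to 88.8 CPM in UIRI+Nx d7 (median 70.3) and from 26.9 to 58.6 CPM in Control (median 48.1), and Srxn1, sulfiredoxin, was at 343 ± 90 CPM in UIRI+Nx d7 and 201 ± 51.6 CPM in Control. Both rose (log2 fold changes 0.74 and 0.78), Nqo1 not without Control replicate 3 or 5 (edgeR adjusted p = 0.0558 and 0.0594), as did Slc7a11, the cystine importer (log2 fold change 4.05). The 2 subunits of the enzyme that starts glutathione synthesis went the other way, with Gclc at 195 ± 40.4 CPM in UIRI+Nx d7 and 439 ± 206 CPM in Control and Gclm at 211 ± 50.1 CPM in UIRI+Nx d7 and 450.3 ± 165 CPM in Control (log2 fold changes -1.17 and -1.09). RefSeq promoter windows of GRCm38.p6, from 250 bases before to 50 bases after the start, were found for 18 of the 22 members. The letters TGACNNNGC, read on both strands, were in 8 of these (44.4%) and in 3781 of all 27025 genes with a window (14.0%). They were in 4 of 8 members that rose and 2 of 3 that fell. The windows of a member that rose and of one that fell are shown because both carry the letters, in capitals.
Srxn1, rose, GRCm38.p6, chr2:152105274-152105573, plus strand: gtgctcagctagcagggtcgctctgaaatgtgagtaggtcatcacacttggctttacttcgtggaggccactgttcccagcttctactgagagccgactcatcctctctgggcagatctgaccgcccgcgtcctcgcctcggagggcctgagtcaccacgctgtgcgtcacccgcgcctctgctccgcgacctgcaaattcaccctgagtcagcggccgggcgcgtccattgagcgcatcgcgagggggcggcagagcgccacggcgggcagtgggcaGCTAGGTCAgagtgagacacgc
Gclm, fell, GRCm38.p6, chr3:122245307-122245606, plus strand: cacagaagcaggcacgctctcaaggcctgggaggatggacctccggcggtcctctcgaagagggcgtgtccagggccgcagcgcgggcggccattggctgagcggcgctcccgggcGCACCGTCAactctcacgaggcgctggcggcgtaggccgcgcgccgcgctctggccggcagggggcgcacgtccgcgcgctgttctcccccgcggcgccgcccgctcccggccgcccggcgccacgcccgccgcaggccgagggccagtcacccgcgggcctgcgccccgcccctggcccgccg
The match begins 28 bases after the start in Srxn1 and 134 bases before the start in Gclm. A match is a description of letters and says nothing on binding.

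Of 30 measured injury genes of the tubule 27 rose and none fell (median 2.45, against 17.3% of all genes higher). Havcr1, the injury molecule KIM-1, ran from 76.8 to 343 CPM in UIRI+Nx d7 (median 238) and from 1.69 to 5.35 CPM in Control (median 4.62). All sole kidneys exceeded all Control kidneys. Cd44, a hyaluronan receptor of activated epithelium, was at 47.7 ± 4.27 CPM in UIRI+Nx d7 and 3.75 ± 1.06 CPM in Control, and Clu, the chaperone clusterin, was at 803 ± 203 CPM in UIRI+Nx d7 and 207 ± 33.2 CPM in Control. Gdf15, a stress hormone that suppresses appetite, was at 784 ± 398 CPM in UIRI+Nx d7 and 95.5 ± 39.1 CPM in Control. The list for failed repair of the proximal tubule had 19 measured genes, and 14 rose and none fell. Vcam1, the adhesion molecule of cells that do not recover, ran from 122 to 206 CPM in UIRI+Nx d7 (median 159) and from 16.7 to 34.1 CPM in Control (median 27.2), without overlap (log2 fold change 2.61, SE 0.23, edgeR adjusted p = 2.09e-09). Il1rn, the interleukin-1 receptor antagonist, was at 20.4 ± 3.6 CPM in UIRI+Nx d7 and 0.53 ± 0.354 CPM in Control, Akap12, a scaffold protein, at 295 ± 118 CPM in UIRI+Nx d7 and 23 ± 4.36 CPM in Control, and Dcdc2a at 63.1 ± 17.4 CPM in UIRI+Nx d7 and 12.3 ± 3.45 CPM in Control. The integrins Itgb6 and Itgb8 of this list did not pass (log2 fold changes -0.17 and -0.56).

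Genes of regeneration and kidney development rose at 12 of 19 members and fell at 1. The counts of this and the next 3 lists stand beside 17.3% of all genes higher and 14.0% lower. Sox9, the factor of regenerating tubules, ran from 107 to 214 CPM in UIRI+Nx d7 (median 156) and from 3.48 to 7.02 CPM in Control (median 5.74), far above Control in every library. Sox11, a related factor of kidney development, averaged 28.9 CPM in UIRI+Nx d7 and 1.86 CPM in Control, and Sox4 averaged 349.9 CPM in UIRI+Nx d7 and 89.5 CPM in Control. Lhx1, needed to form the nephron, was the member that fell (log2 fold change -1.25), and Pax2 and Pax8 did not pass (log2 fold changes -0.58 and 0.19). Immediate early genes, which answer growth and stress signals within minutes, rose at 12 of 16 members, with Egr2 at 13.7 ± 3.01 CPM in UIRI+Nx d7 and 0.891 ± 0.537 CPM in Control and Junb at 161 ± 41.1 CPM in UIRI+Nx d7 and 38.7 ± 13.2 CPM in Control. Of 21 targets of the amino acid stress factor ATF4 10 rose and 2 fell, with Slc7a5, an amino acid importer, among those that rose (log2 fold change 1.76) and Shmt2, a serine enzyme, among those that fell (log2 fold change -1.52). Of 24 ribosome production genes 7 rose and 1 fell, with Myc itself at 4.62 ± 3.75 CPM in UIRI+Nx d7 and 0.511 ± 0.339 CPM in Control and Npm1 at 247 ± 42 CPM in UIRI+Nx d7 and 119 ± 16.4 CPM in Control.

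Most measured genes of cell division rose. Of 40 genes of G2 and mitosis 37 rose and none fell (median 2.05), and of 36 of DNA replication 24 rose and 2 fell (median 0.97). The shares over all genes were 17.3% higher and 14.0% lower. Cdk1, the kinase that starts mitosis, ran from 8.98 to 43.3 CPM in UIRI+Nx d7 (median 24.2) and from 2.23 to 6.14 CPM in Control (median 3.08). Plk1, a mitotic kinase, ran from 11.9 to 33.8 CPM in UIRI+Nx d7 (median 17.8) and from 1.25 to 5.33 CPM in Control (median 3.66). Mki67, the proliferation marker, was at 10.5 ± 4.17 CPM in UIRI+Nx d7 and 2.89 ± 0.556 CPM in Control, and Foxm1, the factor that drives mitotic genes, was at 11.1 ± 2.28 CPM in UIRI+Nx d7 and 2.59 ± 0.697 CPM in Control. None of these 4 overlapped with Control. In replication, Uhrf1, which maintains DNA methylation, averaged 7.39 CPM in UIRI+Nx d7 and 1.09 CPM in Control, and Mcm5, of the helicase, averaged 16.6 CPM in UIRI+Nx d7 and 5.53 CPM in Control. Mcm10, which helps to load replication factors, was among the genes that fell (log2 fold change -0.92).

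Mitotic genes are known to be switched on together through a short sequence near the start, the cell cycle homology element, which often stands a few turns of DNA from CCAAT boxes. The letters TTTGAA were found on either strand in 26 of the 33 G2 and mitosis genes with a RefSeq window (78.8%), including 24 of 30 that rose, and in 5466 of 27025 genes overall (20.2%). CCAAT was in 27 of the 33 (81.8%) and in 11096 genes overall (41.1%). Matches of the 2 motifs overlapped in 1 of the 33 windows. The windows of 3 members that rose are given because each holds both motifs close to the start, with all matches in capitals.
Cdc20, GRCm38.p6, chr4:118437294-118437593, minus strand: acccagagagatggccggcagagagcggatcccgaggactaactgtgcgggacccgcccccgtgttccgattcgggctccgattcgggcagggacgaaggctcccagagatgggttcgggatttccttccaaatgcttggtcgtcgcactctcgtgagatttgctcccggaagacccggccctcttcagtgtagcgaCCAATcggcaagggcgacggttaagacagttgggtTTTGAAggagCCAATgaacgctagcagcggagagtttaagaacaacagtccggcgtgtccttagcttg
Ube2c, GRCm38.p6, chr2:164769679-164769978, plus strand: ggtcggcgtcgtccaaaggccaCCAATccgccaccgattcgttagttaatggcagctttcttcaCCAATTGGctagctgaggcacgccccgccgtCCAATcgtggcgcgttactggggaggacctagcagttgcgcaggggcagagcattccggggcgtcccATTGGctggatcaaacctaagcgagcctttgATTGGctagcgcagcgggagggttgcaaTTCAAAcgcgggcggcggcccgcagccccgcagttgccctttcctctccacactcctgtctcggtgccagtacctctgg
Cdk1, GRCm38.p6, chr10:69352863-69353162, minus strand: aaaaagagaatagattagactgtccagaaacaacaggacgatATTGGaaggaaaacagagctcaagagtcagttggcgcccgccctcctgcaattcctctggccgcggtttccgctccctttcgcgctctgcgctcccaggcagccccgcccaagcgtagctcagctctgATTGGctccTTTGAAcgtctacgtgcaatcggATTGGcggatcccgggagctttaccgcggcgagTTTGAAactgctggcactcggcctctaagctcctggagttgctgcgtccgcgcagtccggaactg
The element nearest the start begins 18 bases before the start in Cdc20, 29 bases before the start in Ube2c and 15 bases before the start in Cdk1. Cdc20, which activates the exit from mitosis, averaged 9.76 CPM in UIRI+Nx d7 and 2.82 CPM in Control, and Ube2c, its ubiquitin-conjugating partner, averaged 16.1 CPM in UIRI+Nx d7 and 2.86 CPM in Control. The list was chosen for its role, so a high share of the element describes its members and not the change.

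Of 23 cell cycle inhibitors and p53 targets 12 rose, 1 fell and 10 did not pass the test. Among all genes 17.3% rose and 14.0% fell. Cdkn1a, the inhibitor p21, ran from 48.8 to 116 CPM in UIRI+Nx d7 (median 94) and from 7.05 to 10.8 CPM in Control (median 8.77), without overlap (log2 fold change 3.25, SE 0.25, edgeR adjusted p = 1.99e-10). Cdkn2a, the locus of the senescence inhibitor p16, ran from 0.65 to 6.59 CPM in UIRI+Nx d7 (median 2.82) and from 0.0519 to 0.17 CPM in Control (median 0.0836). It was low in absolute terms and apart from Control in every library (log2 fold change 4.98, SE 0.67, edgeR adjusted p = 1.8e-06). Eda2r, a death receptor controlled by p53, averaged 5.09 CPM in UIRI+Nx d7 and 0.363 CPM in Control. Mdm2 and Ccng1, classical p53 targets, did not pass (log2 fold changes 0.15 and 0.07).

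Most measured matrix genes rose. Of 20 collagen chains 16 rose and 2 fell (median 2.32), of 26 other matrix proteins 23 rose and none fell, and of 25 proteases, inhibitors and crosslinkers 20 rose and 2 fell. The shares over all genes were 17.3% and 14.0%. Col1a1, the main fibrillar chain, ran from 661 to 1182 CPM in UIRI+Nx d7 (median 782) and from 42.9 to 83 CPM in Control (median 67.3). Col12a1, which decorates collagen fibrils, ran from 42 to 90.5 CPM in UIRI+Nx d7 (median 80.3) and from 3.72 to 5.69 CPM in Control (median 4.48). Both were apart from Control (log2 fold changes 3.69 and 4.00). Col4a3 and Col4a4, chains of the mature glomerular basement membrane, were the 2 that fell (log2 fold changes -0.87 and -0.89), while Col4a1 and Col4a2 of other basement membranes rose, with Col4a1 at a log2 fold change of 1.79. Tnc, tenascin C, was at 162 ± 41.2 CPM in UIRI+Nx d7 and 16 ± 7.75 CPM in Control and Fn1, fibronectin, at 424 ± 86.5 CPM in UIRI+Nx d7 and 42.2 ± 4.01 CPM in Control. Lox, which crosslinks collagen, ran from 77.2 to 311 CPM in UIRI+Nx d7 (median 168) and from 11.2 to 18.2 CPM in Control (median 12.4). Timp3, another metalloproteinase inhibitor, fell and was among the 10 largest losses in CPM, at 1294 ± 118 CPM in UIRI+Nx d7 and 3355 ± 504 CPM in Control (log2 fold change -1.37).

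Fibroblasts and pericytes are known to make most of the matrix in injured kidneys. Of 20 fibroblast and myofibroblast markers 10 rose and 1 fell, against 17.3% and 14.0% of all genes. Acta2, smooth muscle actin, ran from 142 to 376 CPM in UIRI+Nx d7 (median 216) and from 40.8 to 134 CPM in Control (median 81), and Pdgfrb, of fibroblasts and pericytes, was at 59.6 ± 11.5 CPM in UIRI+Nx d7 and 21.8 ± 7.62 CPM in Control (log2 fold changes 1.56 and 1.45). Myh11 and Cnn1 of mature smooth muscle did not pass (log2 fold changes -0.32 and -0.29). Of 22 TGF-beta ligands and targets 13 rose and 1 fell. Ltbp2, which binds latent TGF-beta in the matrix, averaged 19.5 CPM in UIRI+Nx d7 and 0.873 CPM in Control, Inhba, the activin A subunit, averaged 11.1 CPM in UIRI+Nx d7 and 0.747 CPM in Control, and Bmp7, which opposes TGF-beta in the kidney, fell (log2 fold change -0.84). Ccn2, connective tissue growth factor, ran from 42.5 to 2168 CPM in UIRI+Nx d7 (median 399) and from 17.2 to 339 CPM in Control (median 123). Its spread was wide, and it missed the threshold (log2 fold change 2.02, SE 0.79, edgeR adjusted p = 0.0523), but passed when any 1 of 5 libraries was left out (edgeR adjusted p = 0.0247 to 0.048). Without UIRI+Nx d7 replicate 2 its log2 fold change was 1.19, and it did not pass. Of 18 targets of YAP and TEAD, the stretch-sensitive pathway, 9 rose and none fell, with Ankrd1 at 71.3 ± 23.4 CPM in UIRI+Nx d7 and 6.74 ± 2.55 CPM in Control and Myof at 183 ± 23.7 CPM in UIRI+Nx d7 and 34.9 ± 7.46 CPM in Control.

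Among immune lists, those of myeloid cells had the most genes that rose. Of 23 macrophage and monocyte markers 18 rose and 1 fell, and of 23 genes of alternatively activated and scavenging macrophages 19 rose and none fell (median 3.11). Among all genes 17.3% rose and 14.0% fell. Itgam, the integrin CD11b, ran from 12.5 to 44.1 CPM in UIRI+Nx d7 (median 25.9) and from 0.323 to 1.4 CPM in Control (median 0.61), and Lyz2, lysozyme, ran from 438 to 772 CPM in UIRI+Nx d7 (median 594) and from 15.5 to 30.6 CPM in Control (median 28.7). Both were apart from Control (log2 fold changes 5.11 and 4.52). Adgre1, which encodes F4/80, was at 12 ± 3.22 CPM in UIRI+Nx d7 and 2.3 ± 0.874 CPM in Control, whereas Csf1r, the receptor all macrophages need, did not pass (log2 fold change 0.50, SE 0.30, edgeR adjusted p = 0.234). Ly6c2, a marker of fresh inflammatory monocytes, fell (log2 fold change -1.72, edgeR adjusted p = 0.0039). Arg1, the arginase of alternatively activated macrophages, ran from 17.2 to 108 CPM in UIRI+Nx d7 (median 50) and from 0 to 0.363 CPM in Control (median 0.0674). Cd163, the receptor for hemoglobin and haptoglobin, ran from 5.72 to 81.4 CPM in UIRI+Nx d7 (median 33.4) and from 0.173 to 1.54 CPM in Control (median 0.688). In both genes the lowest sole kidney was above the highest Control kidney. Chil3, a chitinase-like protein, averaged 25.1 CPM in UIRI+Nx d7 and 0.189 CPM in Control, F13a1, the factor XIII subunit of macrophages, averaged 50.1 CPM in UIRI+Nx d7 and 0.839 CPM in Control, and 2 genes of lipid-laden macrophages rose too. Gpnmb averaged 78.4 CPM in UIRI+Nx d7 and 1.76 CPM in Control, and Trem2 averaged 18 CPM in UIRI+Nx d7 and 0.612 CPM in Control.

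Chemokines rose at 13 of 20 ligands and fell at 2, against 17.3% and 14.0% of all genes. Among monocyte attractants made by macrophages, Ccl6 averaged 248 CPM in UIRI+Nx d7 and 8.56 CPM in Control, and Ccl9 averaged 56.6 CPM in UIRI+Nx d7 and 2.06 CPM in Control. Cxcl12, which retains leukocytes in tissue, fell (log2 fold change -0.75, edgeR adjusted p = 0.00275). Neutrophil and acute phase genes rose at 12 of 14 members. Saa3, a serum amyloid made outside the liver, ran from 5.2 to 44 CPM in UIRI+Nx d7 (median 10.8) and from 0 to 0.104 CPM in Control (median 0.0801). All 6 sole kidneys were above Control, where 2 libraries held no count (log2 fold change 7.83, SE 1.56, edgeR adjusted p = 0.000294). S100a8 was at 27.8 ± 8.55 CPM in UIRI+Nx d7 and 3.43 ± 2.48 CPM in Control and Fgg, a fibrinogen chain, at 80 ± 82.3 CPM in UIRI+Nx d7 and 8.01 ± 3.36 CPM in Control. In the complement list 14 of 20 rose and 2 fell, with C3 at 242 ± 99.4 CPM in UIRI+Nx d7 and 25.6 ± 15.3 CPM in Control and the anaphylatoxin receptor C5ar1 at 11.3 ± 3.1 CPM in UIRI+Nx d7 and 0.422 ± 0.245 CPM in Control. Cd55, which protects cells from complement, fell (log2 fold change -2.11).

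Genes of lymphocytes, dendritic cells and interferon response were mostly uncalled. Their counts stand beside the 17.3% of all genes that rose and the 14.0% that fell. The T and NK cell list had 13 measured genes, of which 1 rose and 3 fell. Trac, the T cell receptor alpha constant gene, ran from 0.217 to 3.02 CPM in UIRI+Nx d7 (median 0.855) and from 3.53 to 5.99 CPM in Control (median 4.44), with no overlap (log2 fold change -1.90, SE 0.42, edgeR adjusted p = 0.000823). Among 14 dendritic and MHC class II genes 3 rose and 2 fell. Xcr1, the receptor that marks cross-presenting dendritic cells, ran from 0 to 0.387 CPM in UIRI+Nx d7 (median 0) and from 0.68 to 2.66 CPM in Control (median 1.22), and 4 sole kidneys held no count of it. It was lower than in every Control library (log2 fold change -3.94, SE 0.86, edgeR adjusted p = 0.000785). H2-Aa and Cd74 did not pass (log2 fold changes -0.34 and -0.51). Of 27 interferon response genes none rose and 4 fell, among them Rsad2 and Ifi44 (log2 fold changes -1.21 and -1.39). The interferon list median was 0.09, and the share that fell was near that over all genes. Of 10 B and plasma cell genes 2 rose and 1 fell.

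The lists for vessels, oxygen sensing and junctions are given beside the 17.3% of all genes that rose and the 14.0% that fell. Of 22 endothelial genes 6 fell and 3 rose. Pecam1 and Cdh5, found on all endothelium, had log2 fold changes of 0.01 and 0.29 and did not pass, while Kdr, the main VEGF receptor, fell (log2 fold change -0.80, edgeR adjusted p = 0.000506). Vegfa, its ligand, fell too (log2 fold change -0.83, edgeR adjusted p = 0.00771). Among 16 oxygen sensing genes 4 fell and 1 rose. Of 16 iron genes 6 rose and 2 fell, with Cp, ceruloplasmin, at 399.7 ± 129 CPM in UIRI+Nx d7 and 59.9 ± 20.4 CPM in Control and Trf, transferrin, at 147 ± 58 CPM in UIRI+Nx d7 and 26.3 ± 9.17 CPM in Control. Of 21 claudins and tight junction genes 6 rose and 1 fell, with Cldn1 at 69.6 ± 17.9 CPM in UIRI+Nx d7 and 19.3 ± 6.14 CPM in Control and Cldn3 at 90.4 ± 37 CPM in UIRI+Nx d7 and 25.2 ± 4.67 CPM in Control. Among 18 clock genes 7 rose and 6 fell. Arntl, which encodes the activator BMAL1, was at 9.65 ± 3.68 CPM in UIRI+Nx d7 and 2.93 ± 1.04 CPM in Control (log2 fold change 1.73). Dbp, a clock output gene, was at 18.8 ± 7.4 CPM in UIRI+Nx d7 and 78.3 ± 11.5 CPM in Control (log2 fold change -2.06). The hour of harvest is not given in the labels, and its part in the clock genes was not tested. Markers of neighbouring tissue were low. Of 8 urothelium genes 1 rose and 2 fell, of 7 adipocyte genes none passed, and of 3 measured adrenal genes 2 rose and 1 fell at levels under 6 CPM. Summed over the list, urothelium genes took 27.8 to 130.5 CPM in UIRI+Nx d7 and 19.8 to 186 CPM in Control, and adipocyte genes 39.6 to 193 CPM in UIRI+Nx d7 and 44.5 to 264 CPM in Control.

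**Figure D4:**
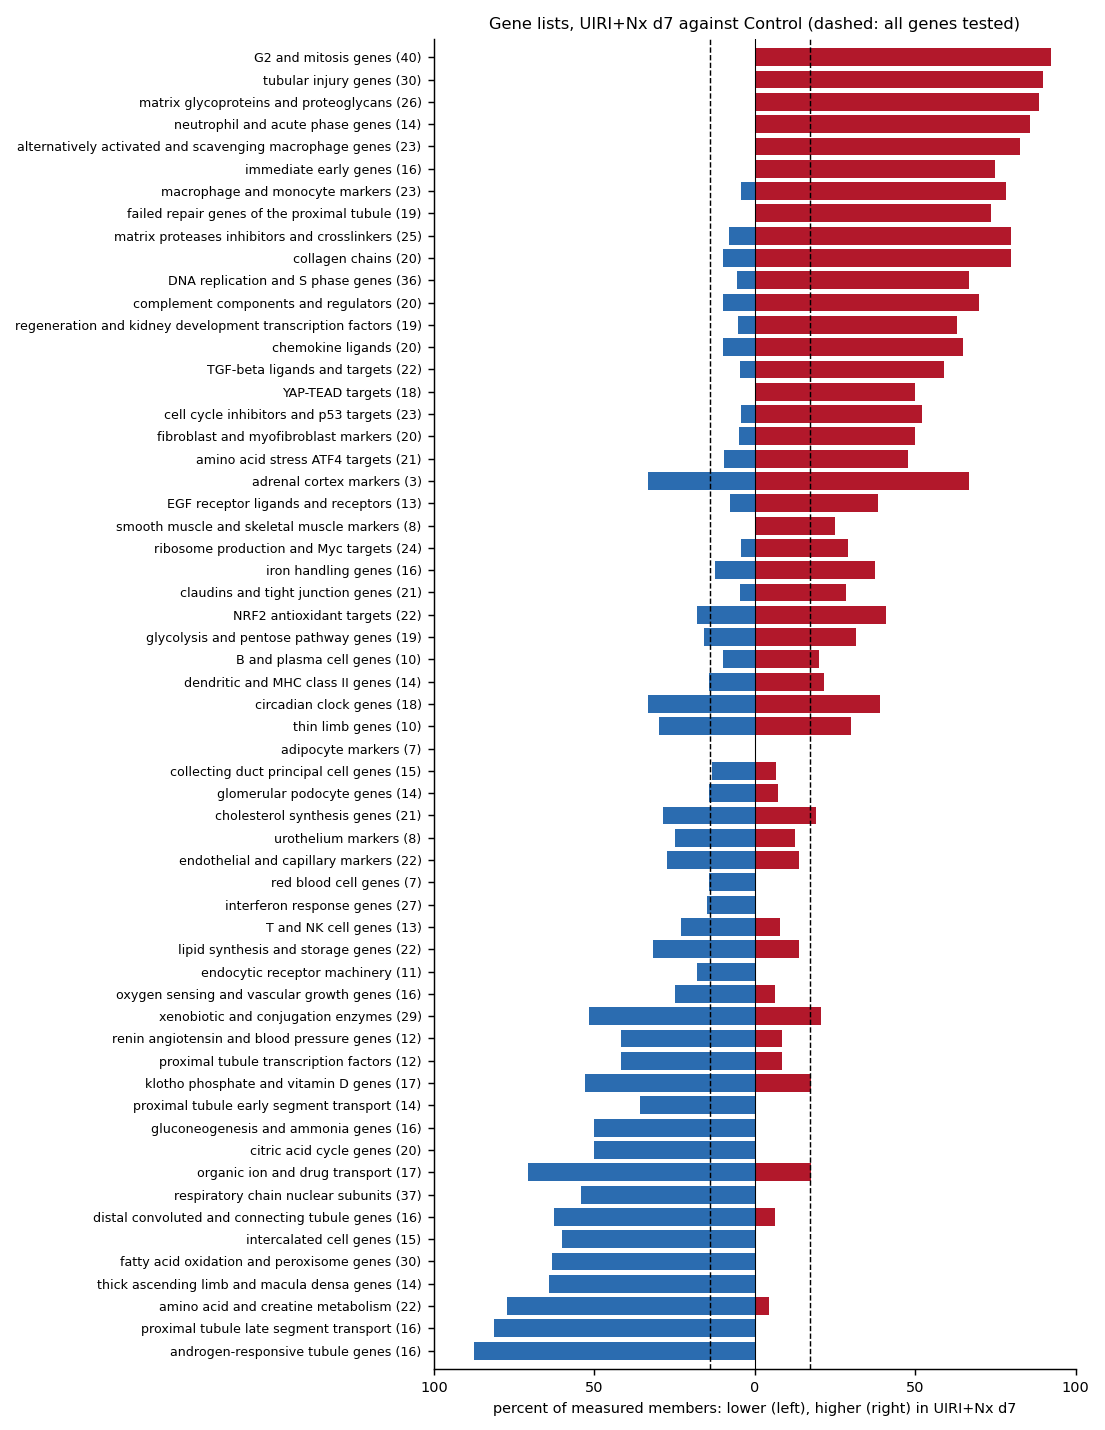
Percentage of the measured genes of each list (rows, with the number measured) that rose (right) or fell (left) in UIRI+Nx d7 against Control in the edgeR test. Dashed lines mark the shares over all genes tested, 17.3% and 14.0%. Mitosis, injury and matrix lists lie far to the right, and androgen, late proximal and amino acid lists far to the left.

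Set against injured kidneys that kept a partner, fewer genes passed the test than against Control. Against UIRI d3, 324 of 15701 genes rose (2.06%) and 481 fell (3.06%). Nephrectomy and the day of harvest both differ between UIRI+Nx d7 and UIRI d3, and their shares cannot be told apart. Without UIRI+Nx d7 replicate 3 the counts against UIRI d3 were 208 and 317, and without replicate 4 they were 209 and 315. Against UIRI d7, 497 rose (3.17%) and 543 fell (3.46%). The number that fell was 357 without UIRI+Nx d7 replicate 2 and 353 without UIRI d7 replicate 3. Within the first of the library sets described in the methods, where 3 UIRI+Nx d7 and 3 UIRI d7 libraries can be compared, no gene passed the edgeR test in either direction (0 of 14817 tested, with 1320 at an unadjusted p under 0.05), so the contrast with UIRI d7 rests on all sets together. The second set held 3 UIRI d7 libraries but 1 UIRI+Nx d7 library, and the third held no UIRI d7 library. These comparisons use the same UIRI+Nx d7 libraries as the one with Control, and the values are therefore given side by side and not as further evidence.

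Several tubule genes were higher than in both injured groups. Pck1 averaged 609 CPM in UIRI+Nx d7, 172 in UIRI d3, 140.4 in UIRI d7 and 712 in Control. It was higher in UIRI+Nx d7 than in UIRI d3 (log2 fold change 1.82, edgeR adjusted p = 0.0146) and than in UIRI d7 (log2 fold change 2.12, edgeR adjusted p = 0.0045). G6pc averaged 138 CPM in UIRI+Nx d7, 36.5 in UIRI d3, 27.2 in UIRI d7 and 135 in Control, with log2 fold changes of 1.92 over UIRI d3 and 2.34 over UIRI d7. Slc38a3 averaged 41.5 CPM in UIRI+Nx d7, 5.75 in UIRI d3, 7.85 in UIRI d7 and 31.8 in Control, and the differences passed against both (log2 fold changes 2.88 and 2.41). Of the 16 gluconeogenesis and ammonia genes, 4 rose and none fell against UIRI d3, and 7 rose and none fell against UIRI d7. Over all genes 2.06% rose against UIRI d3 and 3.17% against UIRI d7. Calb1 of the connecting tubule averaged 361 CPM in UIRI+Nx d7, 35.9 in UIRI d3, 46.9 in UIRI d7 and 638 in Control, and all 6 sole kidneys were above all kidneys of both injured groups (log2 fold changes 3.33 over UIRI d3 and 2.94 over UIRI d7). The sodium channel subunit Scnn1a averaged 64.2 CPM in UIRI+Nx d7, 24.7 in UIRI d3, 24 in UIRI d7 and 57.2 in Control, and S100g averaged 607 CPM in UIRI+Nx d7, 327 in UIRI d3, 258 in UIRI d7 and 1849.5 in Control. Both passed the edgeR test against each injured group.

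Other genes were higher in the sole kidney than in any of the 3 further groups. Gsta4 averaged 67 CPM in UIRI+Nx d7, 9.63 in UIRI d3, 9.73 in UIRI d7 and 23.1 in Control, and Nqo1 averaged 74.6 CPM in UIRI+Nx d7, 19.9 in UIRI d3, 13.4 in UIRI d7 and 44.7 in Control. Tmem252, a membrane protein of the tubule, averaged 843 CPM in UIRI+Nx d7, 229 in UIRI d3, 137 in UIRI d7 and 165 in Control, and Gldc, the glycine cleavage enzyme, averaged 188 CPM in UIRI+Nx d7, 28 in UIRI d3, 17.2 in UIRI d7 and 44.3 in Control. Cyp27b1 averaged 9.11 CPM in UIRI+Nx d7, 0.999 in UIRI d3, 1.13 in UIRI d7 and 1.01 in Control, with log2 fold changes of 3.18 over UIRI d3 (edgeR adjusted p = 0.00878) and 2.95 over UIRI d7 (edgeR adjusted p = 0.0124). Among macrophage genes Arg1 averaged 55.9 CPM in UIRI+Nx d7, 11.1 in UIRI d3, 8.33 in UIRI d7 and 0.138 in Control, Cd163 averaged 40.7 CPM in UIRI+Nx d7, 3.93 in UIRI d3, 6.57 in UIRI d7 and 0.842 in Control and Lyve1 averaged 8.53 CPM in UIRI+Nx d7, 1.56 in UIRI d3, 0.521 in UIRI d7 and 0.432 in Control. These genes passed the test in all 3 comparisons. Cbr3, a carbonyl reductase, averaged 25.8 CPM in UIRI+Nx d7, 5.33 in UIRI d3, 8.8 in UIRI d7 and 2.74 in Control and was among the 6 largest gains over UIRI d3.

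A further set was lower than in any other group. Dnase1 averaged 7.75 CPM in UIRI+Nx d7, 122 in UIRI d3, 78.2 in UIRI d7 and 701 in Control, and it passed in each comparison (log2 fold changes -3.96 against UIRI d3 and -3.32 against UIRI d7). Kap averaged 1033 CPM in UIRI+Nx d7, 7789.6 in UIRI d3, 5554 in UIRI d7 and 47450.5 in Control and Inmt 6.82 CPM in UIRI+Nx d7, 54 in UIRI d3, 44.5 in UIRI d7 and 707 in Control. Cyp2d12, a cytochrome P450, averaged 1.25 CPM in UIRI+Nx d7, 13.9 in UIRI d3, 10.6 in UIRI d7 and 67.8 in Control. All of these passed against UIRI d3 and UIRI d7 as well as Control.

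Against UIRI d7, the T and NK cell list held the most genes that fell among lymphoid and antigen-presenting lists. Of 13 T and NK cell genes 10 fell and none rose against UIRI d7, and of 14 dendritic and MHC class II genes 6 fell and none rose, against 3.46% of all genes lower. Only 13 of the 21 listed T and NK cell genes passed the filter on low counts, which used all 4 groups. Their summed level averaged 13.1 CPM in UIRI+Nx d7, 32.1 in UIRI d3, 73.0 in UIRI d7 and 19.9 in Control. Genes near the floor in UIRI+Nx d7 could pass the filter through UIRI d7, and the effect on these counts was not tested. Of 10 B and plasma cell genes 3 fell and none rose. Cd74, the chaperone of MHC class II, averaged 77.7 CPM in UIRI+Nx d7, 93.3 in UIRI d3, 383 in UIRI d7 and 110.2 in Control (log2 fold change -2.30 against UIRI d7, edgeR adjusted p = 0.0014). Ccl5, made by T cells, averaged 3.71 CPM in UIRI+Nx d7, 12.9 in UIRI d3, 23.8 in UIRI d7 and 3.6 in Control (log2 fold change -2.66, edgeR adjusted p = 2.15e-05). Mgl2, a lectin of dendritic cells and macrophages, averaged 5.24 CPM in UIRI+Nx d7, 13.5 in UIRI d3, 35.5 in UIRI d7 and 5.06 in Control. Clec4b1, another such lectin, averaged 2.47 CPM in UIRI+Nx d7, 5.96 in UIRI d3, 18.7 in UIRI d7 and 5.26 in Control. Of 23 macrophage and monocyte markers 9 fell and none rose. The list of alternatively activated and scavenging macrophage genes did not share this fall, since 4 of 23 rose and 2 fell (median log2 fold change 0.06). Of the 19 failed repair genes 8 fell and none rose against UIRI d7. Vcam1 averaged 161 CPM in UIRI+Nx d7, 393 in UIRI d3, 514 in UIRI d7 and 26.3 in Control, and Havcr1 averaged 225 CPM in UIRI+Nx d7, 1002 in UIRI d3, 677 in UIRI d7 and 4.32 in Control. Both were lower than in UIRI d7 and above Control by the edgeR test. Serpina6, a steroid carrier, and Defb36, a defensin, were also among the 6 largest losses against UIRI d7. Serpina6 averaged 0.942 CPM in UIRI+Nx d7, 0.744 in UIRI d3, 10.7 in UIRI d7 and 0.0363 in Control. Defb36 averaged 1.62 CPM in UIRI+Nx d7, 4.3 in UIRI d3, 13.4 in UIRI d7 and 0.106 in Control.

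Most mitotic genes were lower than in UIRI d3. Of the 40 G2 and mitosis genes 35 fell and none rose against UIRI d3, and 1 fell and none rose against UIRI d7. Plk1 averaged 19.5 CPM in UIRI+Nx d7, 93.7 in UIRI d3, 23.4 in UIRI d7 and 3.39 in Control (log2 fold change -2.26 against UIRI d3, edgeR adjusted p = 5.22e-05). S100a9 and Slpi, of neutrophils and inflamed epithelium, were lower than in UIRI d3 as well. Slpi averaged 2.61 CPM in UIRI+Nx d7, 28.3 in UIRI d3, 3.8 in UIRI d7 and 0.203 in Control, and S100a9 averaged 12.1 CPM in UIRI+Nx d7, 114 in UIRI d3, 29.9 in UIRI d7 and 2.2 in Control. S100a9 did not pass without UIRI d3 replicate 3 (edgeR adjusted p = 0.0676). Aunip, a centrosome protein, averaged 2.25 CPM in UIRI+Nx d7, 17.8 in UIRI d3, 3.2 in UIRI d7 and 0.396 in Control and was among the 6 largest losses against UIRI d3. Against UIRI d3, 3 of 20 collagen chains rose and none fell, 5 of 26 other matrix proteins rose and 1 fell, and 4 of 25 proteases, inhibitors and crosslinkers rose and 1 fell (2.06% and 3.06% of all genes). Col12a1 averaged 73.7 CPM in UIRI+Nx d7, 12.7 in UIRI d3, 44.1 in UIRI d7 and 4.6 in Control and Lox averaged 176 CPM in UIRI+Nx d7, 71.4 in UIRI d3, 109 in UIRI d7 and 13.2 in Control, both higher than in UIRI d3 (log2 fold changes 2.53 and 1.30).

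**Figure D5:**
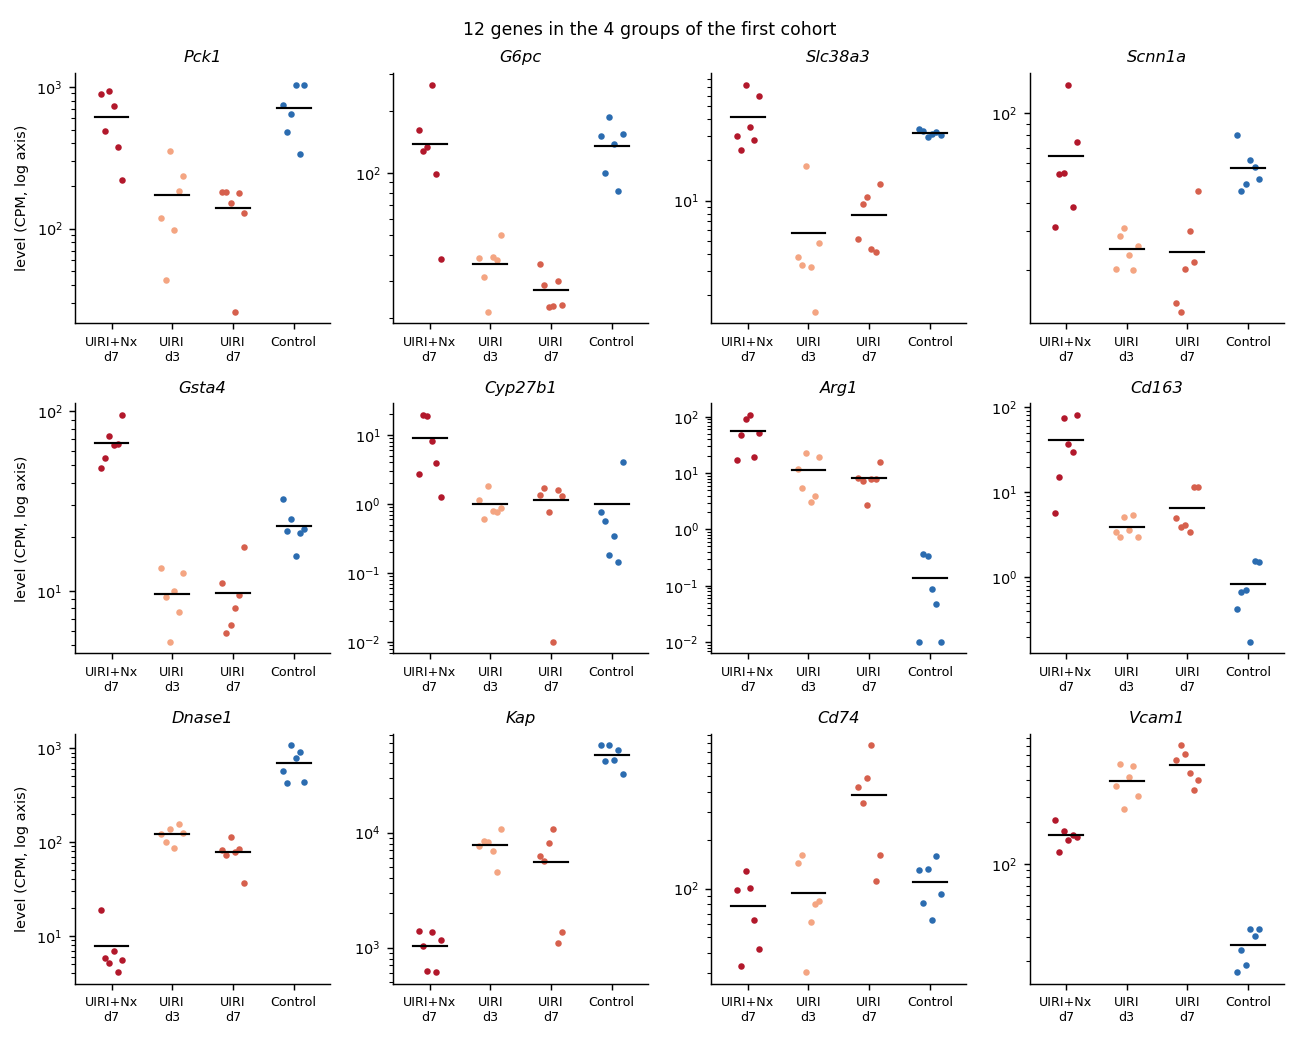
CPM per library on a log axis (y axis) in UIRI+Nx d7, UIRI d3, UIRI d7 and Control for 12 genes, with each point 1 library and the bar the group mean; libraries with no count are drawn at 0.01. Pck1, G6pc, Slc38a3 and Scnn1a overlap with Control in UIRI+Nx d7, Gsta4, Cyp27b1, Arg1 and Cd163 have their highest mean there, and Dnase1, Kap, Cd74 and Vcam1 are lower in UIRI+Nx d7 than in UIRI d7.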

How the data were processed

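RNA of a frozen kidney pole section was extracted with a column kit and sequenced from 500 ng as QuantSeq 3′ FWD libraries, per the labels' protocols. The deposited values are raw counts per gene, for which HTSeq 0.6.1, STAR and Trimmomatic and the build GRCm38 (mm10) are named, per the submitters' processing notes. The strand setting of the counting is not given in the sources used here, so overlapping antisense genes cannot be told apart. Columns were joined to titles by library number. The second cohort was not used.

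Counts of the 24 libraries of the first cohort were fitted in R 4.3.3 with edgeR 4.0.16 (filterByExpr, TMM scaling, quasi-likelihood F test, Benjamini-Hochberg over 15701 genes). SE is the absolute log2 fold change divided by the square root of F. The fit was also run on simulated counts with known fold changes, and the outcome is not reported here. Each p measures the spread between these libraries only, which the labels title as separate samples. Alternatives used DESeq2 1.42.0, other scalings, filters, covariates and fewer libraries. The 3 library sets were inferred from the library and sequencing numbers in the column names. Shares were compared by two-sided exact permutation tests.

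Of 1162 entries in 60 lists, 1103 passed the filter, and counts cover these alone. Members and lists were chosen with earlier results of these data known. Genes named are the 12 largest fold changes against Control and the 6 against each injured group in each direction (at least 10 CPM, no overlap), the 10 largest gains and losses in CPM, up to 4 called members per list by adjusted p, members needed to describe a list, and fixed anchors. Predicted, mitochondrially encoded, ribosomal protein, histone and immune receptor genes were left out of the first 3 groups. Some genes that this rule names are not reported here.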

Additional observations from a re-analysis of the deposited data

Results flagged for a closer look

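Among 444 sets of 6 libraries (a named gene in 1 group, on log2 of CPM + 1), 22 held a library whose distance to the next one, over the whole range, passed Dixon's critical value at the 95% level. Chance gives this in about 1 of 20 groups, which is close to the share seen here. In UIRI+Nx d7, replicate 1 was the highest for Dnase1 (19.0 CPM), Pvalb (0.773 CPM) and Xcr1 (0.387 CPM). Replicate 2 was the highest for Slco1a1 (6.74 CPM). Replicate 3 was the lowest for Il1rn (13.4 CPM) and Ogdh (102.3 CPM) and the highest for Lhx1 (42.0 CPM). Replicate 4 was the highest for Fgg (246.7 CPM) and Dab2 (632.6 CPM) and the lowest for Pth1r (272.0 CPM). Replicate 5 was the lowest for Sprr2f (7.61 CPM). Replicate 6 was the lowest for Cd44 (39.3 CPM) and the highest for Ltbp2 (40.6 CPM).

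In Control, replicate 5 was the lowest for Havcr1 (1.69 CPM), Akr1c18 (4.15 CPM) and Slc22a12 (518.4 CPM) and the highest for Slc34a1 (7776.5 CPM). Replicate 1 was the lowest for Tmem252 (57.0 CPM), replicate 2 was the lowest for Lyz2 (15.5 CPM), and replicate 3 was the lowest for Agt (22.9 CPM) and the highest for Hk2 (8.7 CPM). Replicate 6 was the highest for Cyp27b1 (4.04 CPM). For Dnase1, Pvalb and Slco1a1 the standout sole kidney was still below every Control library.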

How the results depend on the processing

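Against Control, the counts of genes that rose and fell stayed within 1.5 times the reported 2709 and 2200 with DESeq2's size factors (2570 and 2361), DESeq2's Wald test (2775 and 2576), no filter (2669 and 2179), the library set as a covariate (2977 and 2440) and only the 2 groups fitted (2488 and 2191). Leaving out each library in turn gave 2445 to 2683 higher and 1922 to 2257 lower. Fewer libraries gave 445 and 235 within the third set, and the 2-fold limit gave 1786 and 1129. Against UIRI d3 (324 and 481), the first set alone gave 651 and 678, the third 38 and 56, and leaving out a library 208 to 366 and 315 to 548. Against UIRI d7 (497 and 543), fitting 2 groups gave 271 and 315, the first set 0 and 0, and leaving out a library 342 to 508 and 353 to 590. With the library set as a covariate the counts were 615 and 744 against UIRI d7 and 418 and 637 against UIRI d3. DESeq2's Wald test gave 701 and 785 against UIRI d7 and 476 and 718 against UIRI d3. The cause of these differences was not tested.

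Same-numbered libraries did not deviate together in every pair (correlations of -0.21 to 0.244 with Control, -0.424 to 0.171 with UIRI d3 and -0.0911 to 0.4 with UIRI d7). Correlations between libraries of different numbers were not computed, so these values have no reference. With the replicate number as a replicate block, 2661 and 2166 genes passed against Control, 305 and 451 against UIRI d3, and 482 and 481 against UIRI d7.

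For the named genes, a change of sign was counted only where the gene passed in the reported or the alternative fit. Against Control, 4311 of the alternative values counted as unchanged, 106 no longer passed, 12 newly passed and none changed sign in this sense. Genes that passed in neither fit could change sign and still count as unchanged. Ccl5 against Control, for example, ran from -0.195 to 0.194 with 1 library left out. Against the injured groups, 8140 counted as unchanged, 369 no longer passed, 124 newly passed and 2 changed sign in the same sense. Against UIRI d3, Saa3 changed sign within the first set (2.56) and without UIRI d3 replicate 3 (2.34, the highest of a range from -2.21 with 1 library left out). List medians changed sign within the first set for podocyte genes (0.064), T and NK cell genes (0.017), B and plasma cell genes (-0.60), dendritic and MHC class II genes (0.53) and adrenal markers (-0.23). Within the third set they did so for cholesterol synthesis (-0.22) and EGF receptor genes (-0.065). The interferon median was -0.88 within the third set, -0.31 with the replicate block and -0.42 without UIRI+Nx d7 replicate 4 (up to 0.16 without another library). Sets held 2 or 3 libraries a group, and depth limits genes under about 1 CPM.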
